A study of Mus musculus with 14 samples.

Results

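Major histocompatibility complex (MHC) class II genes were followed across normal mammary gland, the gland beside a tumor, and tumors of MMTV-neu mice. The genes were H2-Aa, H2-Ab1, H2-Eb1, H2-DMa, H2-DMb1, H2-Oa, Cd74 and Ciita, taken by symbol from the platform annotation of the arrays. All 8 of these genes were on the arrays, of 8251 genes named there. They were read by 9 probe sets, and all 9 passed the filter on low values.

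Class II molecules are pairs of an alpha and a beta chain that hold peptides from endosomes on the cell surface and show them to CD4+ T cells. The invariant chain, encoded by Cd74, guides new pairs to the endosome and blocks the peptide groove, H2-DM exchanges its last fragment for peptides, and H2-O restrains H2-DM. The coactivator Ciita switches these genes on in dendritic cells, B cells and macrophages, and interferon gamma can induce it in other cells, epithelium included.

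Total RNA of 14 samples was hybridised, 1 sample per array. The wild-type group had 3 arrays, each a pool of RNA from mammary glands of 5 mice. Pool 40 came from mice aged 31 weeks with 87.5% FVB and 12.5% CF-1 background, and pools 41 and 42 from mice aged 41 weeks with 97% FVB and 3% CF-1. The adjacent group had 4 arrays (23, 25, 49 and 51) of preneoplastic gland that surrounded a tumor in MMTV-neu mice. The tumor group had 5 arrays (22, 24, 26, 50 and 52) of MMTV-neu mammary tumors, and set B had 2 tumors (80 and 81) from a second group, run to see whether changes recur. In MMTV-neu mice the mouse mammary tumor virus promoter drives the neu (erbB2) oncogene, mainly in mammary epithelium. The adjacent gland carries the transgene as the tumors do, and the wild-type pools do not. Age and background of the MMTV-neu mice, and which adjacent gland belongs to which tumor, are not given in the sources used here. The neu arrays are not stated to be pools, so the spread of pools and of neu samples may not be alike, and every p-value reflects the spread among these samples alone.

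The tissue labels were checked against marker genes. Summed intensities of 7 white adipocyte markers ranged from 128092 to 192295 in the pools, from 65953 to 114679 in adjacent gland and from 3982 to 8365 in the tumors. Sums of 10 luminal epithelial markers ranged from 39877 to 45154, from 50745 to 79885 and from 80527 to 129577. Labels give 5 array lots. Lot 2001815 holds adjacent 23 and 25 and tumors 22, 24 and 26, and lot 2004907 holds pool 40 and adjacent 49 and 51. Lot 2003877 holds pools 41 and 42, lot 2004097 holds tumors 50 and 52, and lot 2006609 holds set B. With the numbers as given, no lot holds tumors and wild-type gland together. The ratio of 3′ to 5′ actin control probe sets, a sign of RNA quality, was 0.90 to 1.51 on the log2 scale in pools, 0.38 to 1.52 in adjacent gland and 0.08 to 0.76 in tumors, and its part in the results was not tested.

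Class II genes share a promoter module in which the Y box, an inverted CCAAT box read as ATTGG, is bound by NF-Y. The 160 bases before the annotated start are shown for the members found in RefSeq's promoter table (build GRCm38.p6), 5 of the 8, because the classical chains and both H2-DM chains are compared below. Each is written 5′ to 3′ on the gene's strand, with ATTGG and CCAAT in capitals. The reference strain is not FVB, and any effect of MHC polymorphism on the probes was not tested.
H2-Aa, chr17:34287824-34287983, minus strand: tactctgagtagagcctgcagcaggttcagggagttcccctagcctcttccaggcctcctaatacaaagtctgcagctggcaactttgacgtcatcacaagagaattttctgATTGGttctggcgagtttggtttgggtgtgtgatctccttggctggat
H2-DMa, chr17:34122672-34122831, plus strand: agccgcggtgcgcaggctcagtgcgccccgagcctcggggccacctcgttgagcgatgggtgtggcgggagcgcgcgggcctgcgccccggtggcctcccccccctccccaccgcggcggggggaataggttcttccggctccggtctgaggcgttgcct
H2-DMb1, chr17:34153031-34153190, plus strand: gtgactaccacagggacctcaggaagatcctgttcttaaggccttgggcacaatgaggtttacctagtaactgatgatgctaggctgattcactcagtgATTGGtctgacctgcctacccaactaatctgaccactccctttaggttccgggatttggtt
H2-Eb1, chr17:34305707-34305866, plus strand: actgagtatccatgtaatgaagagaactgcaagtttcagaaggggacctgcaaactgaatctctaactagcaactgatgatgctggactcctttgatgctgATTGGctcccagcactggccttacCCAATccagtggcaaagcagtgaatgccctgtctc
H2-Oa, chr17:34092219-34092378, plus strand: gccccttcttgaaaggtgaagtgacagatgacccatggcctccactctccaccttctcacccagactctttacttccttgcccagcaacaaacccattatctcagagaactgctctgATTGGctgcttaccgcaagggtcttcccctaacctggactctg

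ATTGG lay 48 bases before the start in H2-Aa, 59 in H2-Eb1, 61 in H2-DMb1 and 43 in H2-Oa. H2-Eb1 also held CCAAT 35 bases before its start. Neither of 2 annotated H2-DMa starts, of which 1 is shown, held either motif in the window. Both windows lay inside the annotated span of H2-DMa, 34119693 to 34139101, while those of the other genes shown abutted their spans. The bases before the H2-DMa span were not read, so whether they hold the motif was not tested. Of 32851 mouse promoters of the same length, 25.6% held the motif on either strand and 14.4% held ATTGG on the gene's strand. H2-DMb1 and H2-Eb1 shared the 13 bases aactgatgatgct, beginning 92 and 89 bases before their starts, a run found in 2 of the 32851 promoters. The other longest shared runs between 2 of the genes were of 6 to 10 bases.

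In tumors, the I-A chains, the invariant chain and H2-DMa were lower than in wild-type gland, while H2-DMb1 was higher. Of the 8 genes, 4 fell (H2-Aa, H2-Ab1, Cd74 and H2-DMa), 1 rose (H2-DMb1), and H2-Eb1, H2-Oa and Ciita did not pass the test. Calls are from limma, at p under 0.05 after Benjamini-Hochberg adjustment over 8616 probe sets. In this comparison 29.9% of all probe sets were called, 14.1% lower and 15.8% higher, and in 16.1% every tumor lay below every pool. The median log2 difference was -0.93 over the 8 genes and 0.16 over all probe sets. In bulk tissue, fewer cells of a type and less RNA per cell cannot be told apart.

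H2-Aa encodes the alpha chain of I-A, a classical class II molecule. Its intensity was 16581, 20912 and 19649.7 in pools 40, 41 and 42. It was 12834, 9063, 22279.6 and 24391 in adjacent 23, 25, 49 and 51. In tumors 22, 24, 26, 50 and 52 it was 3852, 10428, 2149.6, 8384 and 9828. All 5 tumors lay below all 3 pools, while tumors 24 and 52 lay above adjacent 25. The log2 difference between tumors and wild-type gland was -1.69 ± 0.48 (SE; adjusted p = 0.0153), a 3.22-fold lower level. Against adjacent gland it was -1.43 ± 0.44 (adjusted p = 0.0412, limma).

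H2-Ab1 encodes the beta chain of I-A. Its intensity was 5512, 6168 and 5323 in the pools and 4263, 4244, 5956 and 10961 in adjacent gland, where array 51 stood highest. The 5 tumors gave 2033, 4513, 1057, 2356 and 2912. Every tumor lay below every pool, and tumor 24 lay above both adjacent glands of its lot. The log2 difference was -1.29 ± 0.41 from wild-type gland (adjusted p = 0.0253, limma), or 2.44-fold. From adjacent gland it was -1.34 ± 0.37 (adjusted p = 0.0230, limma).

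H2-Eb1, the beta chain of I-E, varied widely within groups. It read 2130.2, 1397 and 528 in the pools, 628, 1899, 706 and 1356 in adjacent gland, and 412, 487, 204, 753 and 1426 in tumors. Groups overlapped, and the difference of -1.12 ± 0.57 (log2) between tumors and wild-type gland did not pass the test (adjusted p = 0.156, limma). The difference from adjacent gland was -0.95 ± 0.53 (adjusted p = 0.277). H2-Ea, which encodes its alpha partner, did not pass the filter and read between 119.8 and 665.5 over all arrays. Both genes read highest in pool 40, and any part of strain background in their levels was not tested.

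Cd74, the invariant chain, read 25429.6, 30916 and 30316 in the pools and 19084, 16568, 35538 and 42329 in adjacent gland. In tumors it read 10978, 15825, 5615, 15977 and 22882. All tumors lay below all pools, and tumor 52 lay above adjacent 23 and 25. The log2 difference was -1.16 ± 0.39 from wild-type gland (adjusted p = 0.0365, limma), or 2.23-fold. Against adjacent gland the difference of -1.03 ± 0.36 did not pass the test (adjusted p = 0.0728).

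**Figure D1:**
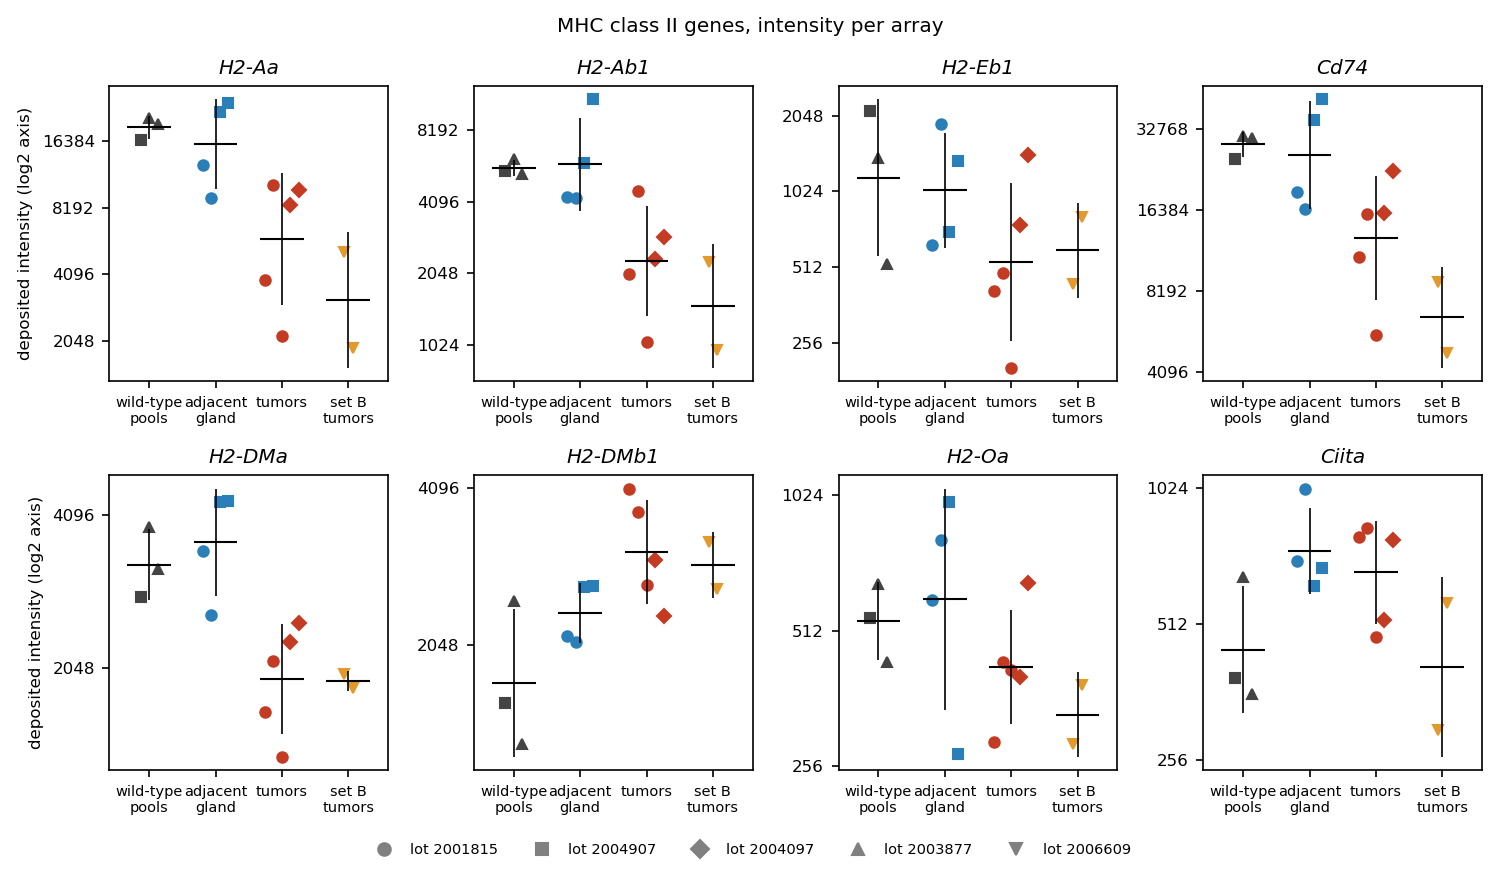
Intensity per array (log axis) of the 8 class II genes in wild-type pools (3 arrays), adjacent gland (4), tumors (5) and set B tumors (2), with array lot as the point's shape and the group's geometric mean as a bar. For H2-Aa, H2-Ab1, Cd74 and H2-DMa every tumor lies below every pool, and for H2-DMb1 tumor 52 lies below pool 41.

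The 2 chains of H2-DM moved in opposite directions. H2-DMa, the alpha chain, read 2817, 3877 and 3198 in the pools, 3472, 2599, 4339 and 4364 in adjacent gland, and 1677, 2111, 1366, 2301 and 2503 in tumors. The tumors lay below every pool and every adjacent gland. The log2 difference was -0.75 ± 0.23 from wild-type gland (adjusted p = 0.0215, limma) and -0.89 ± 0.21 from adjacent gland (adjusted p = 0.00836). A dimmer probe set of H2-DMa, at 122.5 to 1319.8, gave -0.38 ± 0.61 and -0.16 ± 0.56, and neither passed the test. With the mean of both probe sets H2-DMa differed by -0.56 and -0.52, with adjusted p of 0.249 and 0.342.

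H2-DMb1, the beta chain, read 1580, 2489 and 1316 in the pools and 2129.6, 2073, 2644 and 2653 in adjacent gland. In tumors it read 4096, 3694, 2671, 2984 and 2328. Only tumor 52 lay within the range of the pools. The log2 difference from wild-type gland was 0.84 ± 0.23 (adjusted p = 0.0132, limma), or 1.79-fold higher, and from adjacent gland 0.39 ± 0.21 (adjusted p = 0.275). Another probe set, listed for H2-DMb1 and its close copy H2-DMb2 together, read 215 to 358 in pools, 233 to 671 in adjacent gland and 738 to 1187 in tumors. It differed by 1.65 ± 0.35 from wild-type gland (adjusted p = 0.00218) and by 1.02 ± 0.32 from adjacent gland (adjusted p = 0.0448). A probe set listed for H2-DMb2 alone differed by 0.41 ± 0.68 from wild-type gland (adjusted p = 0.676). Transcripts of the copies may share signal, so the value belongs to H2-DMb1 with that limit.

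Within an array, log2 H2-DMb1 minus log2 H2-DMa was -0.83, -0.64 and -1.28 in the pools and -0.71, -0.33, -0.71 and -0.72 in adjacent gland. In tumors 22, 24, 26, 50 and 52 it was 1.29, 0.81, 0.97, 0.38 and -0.10, and in set B it was 0.70 and 0.49. Each tumor lay above each array that was not a tumor, with tumor 52 nearest. The mean was -0.92 ± 0.33 (SD, n = 3) in wild-type gland, -0.62 ± 0.19 (n = 4) in adjacent gland and 0.67 ± 0.54 (n = 5) in tumors. This pair was chosen after its values were seen and is given as a description, since levels of 2 probe sets are not comparable with each other and only their shift between arrays is read. With the mean of both H2-DMa probe sets the groups overlapped, at 0.31 to 0.75 in pools, 0.49 to 1.35 in adjacent gland and 0.36 to 2.69 in tumors. Within lot 2001815 the tumors' mean exceeded that of adjacent gland by 1.54.

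**Figure D2:**
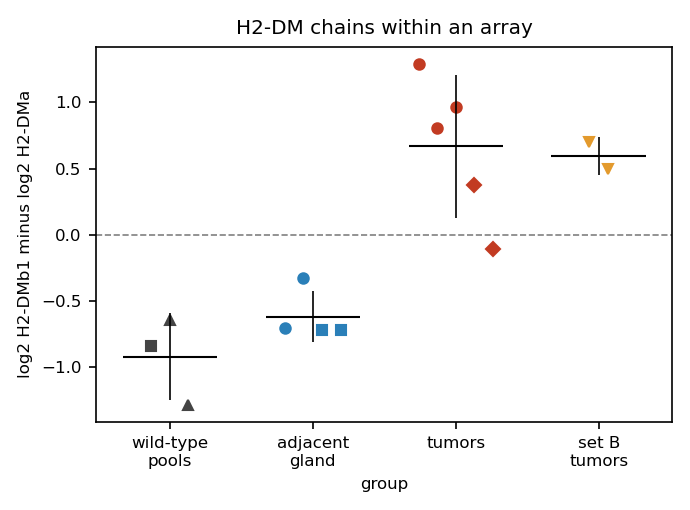
Difference between log2 H2-DMb1 and log2 H2-DMa within each array, by group, with array lot as the point's shape, the group mean as a horizontal bar and 1 SD as a vertical line. Tumors lie from -0.10 to 1.29, and the pools and adjacent glands from -1.28 to -0.33.

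H2-Oa, a chain of the H2-DM inhibitor H2-O, read 437 to 649.6 in the pools, 273 to 987 in adjacent gland and 289.8 to 654 in tumors. The log2 difference of tumors was -0.34 ± 0.39 from wild-type gland (adjusted p = 0.550, limma) and -0.50 ± 0.36 from adjacent gland (adjusted p = 0.436). H2-Ob, the other chain of H2-O, differed by -0.12 ± 0.56 and -0.80 ± 0.51, and neither passed the test.

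Ciita, the coactivator, did not pass the test in tumors against wild-type gland or adjacent gland. It read 388, 653 and 359 in the pools, 709, 1024, 622 and 683 in adjacent gland, and 799, 837, 481, 523 and 786 in tumors. Groups overlapped. The log2 difference between tumors and wild-type gland was 0.57 ± 0.32 (adjusted p = 0.20, limma), with a 95% interval from -0.12 to 1.26. Against adjacent gland it was -0.16 ± 0.30 (adjusted p = 0.804).

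All 5 calls depended on single arrays and on how lots were treated. Between tumors and wild-type gland, none of the 8 genes was called without pool 42, 1 was called without pool 41, 2 without pool 40 and 3 without tumor 26. Without pool 41 the adjusted p was 0.0577 for H2-Aa, 0.0860 for H2-Ab1, 0.112 for H2-DMa and 0.110 for Cd74. Without pool 42 these were 0.0540, 0.0642, 0.0610 and 0.106, and H2-DMb1 had 0.0930. Without pool 40, H2-Ab1, Cd74 and H2-DMb1 had 0.0639, 0.0669 and 0.0555. Cd74 also missed the threshold without tumor 22 (0.0692) or 26 (0.0718), and H2-Ab1 without tumor 26 (0.0516). The sign was kept for these 5 genes in every such fit. With lot as a fixed block, none of the 8 genes was called, against 3.82% of all probe sets, and the log2 differences were -0.80 for H2-Aa, -0.44 for H2-Ab1, -0.23 for Cd74, -0.20 for H2-DMa and 1.45 for H2-DMb1. In that fixed block pools 41 and 42 and tumors 50 and 52 carried no weight, as their lots hold no other group. Its differences thus rest on pool 40 as the only wild-type array, tied to tumors 22, 24 and 26 through the adjacent glands. With lot as a random block, H2-Aa (adjusted p = 0.0413) and H2-DMb1 (0.0205) were called. With no filter on low values, H2-Aa (0.0576), H2-Ab1 (0.0753) and Cd74 (0.10) were not called.

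Lots 2004097 and 2004907 differ by the order of 2 digits and may be 1 lot. If so, tumors 50 and 52 can be set against pool 40, and the log2 differences were -0.87 ± 0.71 for H2-Aa, -1.07 ± 0.68 for H2-Ab1, -0.41 ± 0.50 for Cd74, -0.23 ± 0.31 for H2-DMa and 0.74 ± 0.38 for H2-DMb1. None of the 8 genes was called there, against 10.4% of all probe sets. The lone pool 40 was assumed to vary like the other arrays, which gave the spread. With the numbers as given, lot and group cannot be told apart for this comparison beyond what the block allows.

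**Figure D3:**
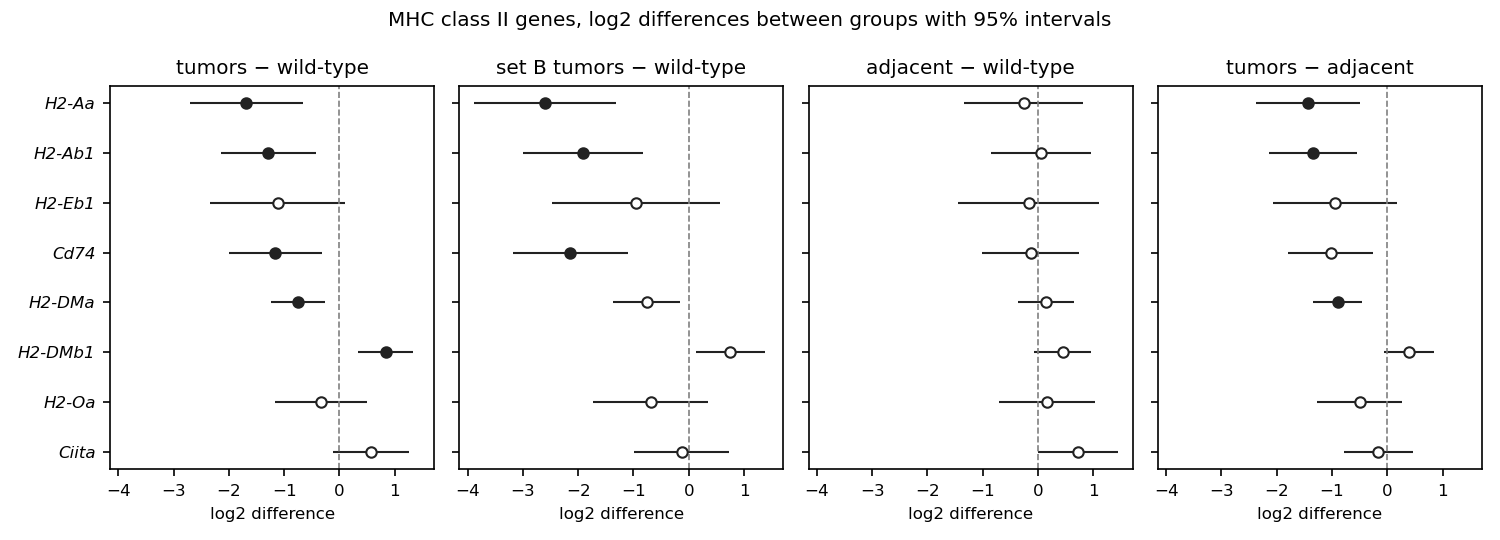
Log2 difference of each class II gene with its 95% interval from limma, for 4 comparisons: tumors against wild-type gland, set B against wild-type gland, adjacent gland against wild-type gland, and tumors against adjacent gland. Filled points passed an adjusted p under 0.05, as 5, 3, 0 and 3 genes did in that order, and open points did not.

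Between tumors and the gland around them, 3 of the 8 genes fell (H2-Aa, H2-Ab1 and H2-DMa) and none rose. In this comparison 14.4% of all probe sets were called, 9.04% lower, and in 7.85% every tumor lay below every adjacent gland, as it did for H2-DMa. The median was -0.92 over the 8 genes and 0.07 over all probe sets. H2-DMa was called in each fit that left out 1 array, with adjusted p up to 0.0352. H2-Aa lost its call without adjacent 23 (0.0577), 49 (0.108) or 51 (0.137), or tumor 22 (0.0986) or 26 (0.0900). H2-Ab1 lost it without adjacent 51 (0.0964) or tumor 22 (0.0515) or 26 (0.0515). Only 1 of the 8 was then called without adjacent 51, tumor 22 or tumor 26. This comparison can be made within lot 2001815, with 3 tumors and 2 adjacent glands. There the log2 difference was -0.83 ± 0.23 for H2-DMa (adjusted p = 0.0480, limma), -1.29 ± 0.53 for H2-Aa (0.194), -0.996 ± 0.505 for H2-Ab1 (0.307) and -0.84 ± 0.38 for Cd74 (0.236). It was 0.71 ± 0.28 for H2-DMb1 (0.176). With lot as a fixed block none of the 8 was called, against 6.64% of all probe sets, and H2-DMa had 0.0641. H2-Aa also lost its call with median scaling (0.0744), with only these 2 groups fitted (0.0693) and with no filter (0.126), and H2-Ab1 with no filter (0.0797). Cd74 was called under quantile normalization (0.0301) and with lots 2004097 and 2004907 joined in the block (0.0267). This comparison and the one with wild-type gland share the tumor arrays. Some tumors and adjacent glands may come from the same mouse, and the test treated them as independent.

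In adjacent gland, no class II gene differed from wild-type gland by the test. None of the 8 was called by limma, against 1.17% of all probe sets. At an unadjusted p under 0.05 there was 1, Ciita, at 0.73 ± 0.34 (log2; adjusted p = 0.331), against 14.8% of all probe sets. H2-DMb1 stood at 0.45 ± 0.24 (adjusted p = 0.414), H2-DMa at 0.15 ± 0.24, H2-Oa at 0.16 ± 0.41 and H2-Ab1 at 0.05 ± 0.42. H2-Aa stood at -0.26 ± 0.51, with a 95% interval from -1.33 to 0.82, Cd74 at -0.13 ± 0.41 and H2-Eb1 at -0.17 ± 0.60. With every array divided by its median, which moves the median of all probe sets from 0.07 to -0.10, H2-Ab1, H2-DMa and H2-Oa had the opposite sign.

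The adjacent glands split by lot for the abundant chains. Adjacent 49 and 51 lay above 23 and 25 for H2-Aa, H2-Ab1, Cd74, H2-DMa and H2-DMb1, and above all pools for H2-Aa, Cd74, H2-DMa and H2-DMb1. They lay below 23 and 25 for Ciita, and H2-Eb1 and H2-Oa did not split. With 2 arrays on each side such splits are common by chance, and their share over all probe sets was not computed. The log2 difference of lot 2004907 from lot 2001815 within adjacent gland was 1.13 ± 0.41 for Cd74 (adjusted p = 0.153, limma), 1.11 ± 0.58 for H2-Aa (0.304), 0.93 ± 0.55 for H2-Ab1 and 0.53 ± 0.25 for H2-DMa. No class II gene was called, against 1.60% of all probe sets. Within lot 2004907, adjacent 49 and 51 differed from pool 40 by 0.61 ± 0.50 for Cd74, 0.49 ± 0.71 for H2-Aa, 0.55 ± 0.68 for H2-Ab1 and 0.63 ± 0.31 for H2-DMa, and none was called, against 0.65% of all probe sets. Pool 40 is here again a lone array with the spread of the others. Leukocyte markers also differed among these 4 glands. Their 10 pan-leukocyte markers summed to between 16796 and 31352, and 10 B cell markers to between 3605 and 12213. Relative to the wild-type mean, the mean log2 level of the 6 B cell markers tested was 0.10, 0.75, 1.87 and 0.94 in adjacent 23, 25, 49 and 51. That of the 2 T cell markers tested, Cd4 and Zap70, was 0.24, 1.47, 0.51 and 0.30. T cell markers that did not pass the filter were highest in adjacent 49, except Cd5, which was highest in adjacent 51. Cd3e, for example, read 140.6, 257.6, 1502.1 and 593.1 in adjacent 23, 25, 49 and 51. Against wild-type gland, differences of adjacent gland were positive for 9 of 10 pan-leukocyte and all 6 B cell markers. Of 12 macrophage and 8 dendritic cell markers, 8 and 7 were positive. Medians were 0.52, 0.64, 0.16 and 0.39 in that order, and 0.07 over all probe sets. Of these only Pax5 was called, at 2.41 ± 0.50 (adjusted p = 0.0329, limma), against 1.17% of all probe sets. Its pool values lay at or near the floor, so the B cell means are uncertain. The part of leukocyte content in the class II levels was not tested.

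The 2 set B tumors were low in the I-A chains and Cd74 as well. H2-Aa read 5171 and 1898, H2-Ab1 2293 and 984, and Cd74 8860 and 4821, all below every pool, as in 27.5% of all probe sets. Of the 8 genes these 3 were called lower than wild-type gland by limma and none higher, where 23.2% of all probe sets were called, 12% lower. The log2 differences were -2.60 ± 0.60 for H2-Aa (adjusted p = 0.00557), -2.14 ± 0.49 for Cd74 (0.00530) and -1.91 ± 0.51 for H2-Ab1 (0.0124). H2-DMa read 1991 and 1865 and differed by -0.76 ± 0.29 (0.0655), and H2-DMb1 read 3231 and 2626 and differed by 0.75 ± 0.29 (0.0745). H2-Eb1 differed by -0.96 ± 0.72, H2-Oa by -0.69 ± 0.49 and Ciita by -0.13 ± 0.40. The median was -0.86 over the 8 genes and 0.05 over all probe sets. These differences use the same pools as those of the first tumors. Without tumor 81 none of the 8 was called. Set B is then tumor 80 alone, assumed to vary like the other groups, and H2-Aa stood at -1.87 (0.112), Cd74 at -1.70 (0.0890) and H2-Ab1 at -1.30 (0.191). Set B shares no lot with another group, so lot and set cannot be told apart.

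Between set B and the first tumors, limma called 0 of 8616 probe sets, which is 0%. At an unadjusted p under 0.05 there was 1 class II gene, Cd74 at -0.98 ± 0.45, against 10.8% of all probe sets. For H2-Aa the difference was -0.91 ± 0.55, with a 95% interval from -2.09 to 0.26. By mean log2 level, H2-Aa was thus ordered as 14.21 ± 0.17 (SD, n = 3) in wild-type gland, 13.95 ± 0.68 (n = 4) in adjacent gland, 12.53 ± 0.997 (n = 5) in tumors and 11.61 ± 1.02 (n = 2) in set B. In that order, only adjacent gland and tumors were neighbours whose difference passed the test. Cd74 ran 14.81 ± 0.16, 14.68 ± 0.66, 13.65 ± 0.77 and 12.67 ± 0.62 over the same groups, and no pair of neighbours passed.

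Among themselves, H2-Aa, H2-Ab1, Cd74 and H2-DMa varied together over the arrays. Over the 14 arrays the Pearson correlation of log2 values was 0.98 between H2-Aa and Cd74, 0.96 between H2-Aa and H2-Ab1, 0.91 between H2-Aa and H2-DMa and 0.90 between H2-DMa and Cd74. After each group's mean was subtracted, these were 0.95, 0.90, 0.87 and 0.90. Ciita had 0.07 with H2-Aa and 0.14 with Cd74, H2-Eb1 had 0.54 with H2-Aa, and H2-DMb1 had -0.43 with H2-Aa. After subtraction of group means these were -0.10, -0.05, 0.28 and 0.24, so the sign for H2-DMb1 was not kept within groups. H2-Ab1 and H2-DMa had 0.88, and 0.70 after subtraction. Ciita had 0.28 with H2-Eb1 and 0.32 with H2-DMb1, and 0.51 and 0.27 after subtraction. These are descriptions over 14 arrays that share groups, lots and scaling. Tumor 26 was the lowest of the first 5 tumors for H2-Aa, H2-Ab1, H2-Eb1, Cd74 and H2-DMa, and set B tumor 81 was the lowest of all 14 arrays for H2-Aa, H2-Ab1 and Cd74.

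The genes whose pattern was most like the mean standardised level of the 8 were ranked over the 14 arrays. The first 6 outside the group were Arhgap45 (r = 0.91), Cdk14 (0.90), Ptpn22 (0.88), Ptprcap (0.86), Rac2 (0.85) and Fermt3 (0.85). Ptpn22 is a tyrosine phosphatase of lymphocytes, and Ptprcap is a protein bound to the leukocyte phosphatase CD45. Which cells carried these genes here was not tested. The mean was not shared evenly by the 8 genes: Cd74 had 0.89 with it, H2-Oa 0.57, Ciita 0.48 and H2-DMb1 -0.22. On deviations from group means the first 6 were Ptpn22 (0.88), Fermt3 (0.87), Pttg1ip (0.85), Cdk14 (0.84), Ctps2 (0.83) and Plat (0.82). Ptpn22 read 872, 1009.7 and 418 in the pools, 621, 433, 1349 and 1133 in adjacent gland, and 198, 283, 87.6, 369 and 470.4 in tumors. Ctps2 differed from it by group, at 1859.3, 2098.1 and 1510.4 in the pools and 2420.5, 2459.9, 1182.5, 2567.5 and 3301.6 in tumors.

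The factors that bind class II promoters, Rfxank, Nfya, Nfyb, Nfyc and Creb1, were tested as 5 of a list of 7. None was called in tumors against wild-type gland, against 29.9% of all probe sets, and their median log2 difference was 0.29. Rfxank, a subunit of the RFX complex, differed by 0.29 ± 0.21 (adjusted p = 0.338, limma) and Creb1 by 0.68 ± 0.55 (0.377). None was called in tumors against adjacent gland either, where 14.4% of all probe sets were.

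Genes of the interferon gamma pathway were lower in part. Of 7 tested, 3 fell in tumors against wild-type gland and none rose, with a median of -0.35 against 0.16 for all probe sets. In this comparison 29.9% of all probe sets were called, 14.1% lower. Irf8, a transcription factor of myeloid and B cells, fell by 1.13 ± 0.34 on the log2 scale (adjusted p = 0.0211, limma). Irf1, an interferon-induced factor, fell by 0.94 ± 0.26 (0.0114), and Ifngr1, a receptor chain, fell by 0.78 ± 0.24 (0.0236). Against adjacent gland 3 of 7 fell: Irf8 by 1.23 ± 0.32 (0.0145), Irf1 by 0.78 ± 0.24 (0.0359) and the kinase Jak2 by 0.64 ± 0.19 (0.0314). There 14.4% of all probe sets were called, 9.04% lower. Ifng itself did not pass the filter and was above the floor of 101 only in tumor 52, at 131.6.

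Genes of endosomal antigen processing went both ways. Of 11 tested in tumors against wild-type gland, 2 rose and 3 fell, with a median of -0.01. Of all probe sets, 15.8% were called higher and 14.1% lower. The cathepsins Ctsh and Ctss rose by 1.10 ± 0.27 (adjusted p = 0.00568, limma) and 0.74 ± 0.24 (0.0267) on the log2 scale. Ctss, which trims the invariant chain, read 7034.5 to 7772 in pools and 8388 to 16654 in tumors, where Cd74 was lower. The cathepsin inhibitor Cst3 fell by 1.10 ± 0.25 (0.00397), Ctsb by 0.93 ± 0.23 (0.00581) and the lysosomal membrane protein Lamp1 by 0.76 ± 0.18 (0.00423). Against adjacent gland 1 of 11 rose, Ctsh by 0.84 ± 0.25 (0.0307), and none fell, where 14.4% of all probe sets were called.

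The class I pathway, which presents peptides from the cytosol, had 2 calls among 10 genes tested in tumors against wild-type gland, where 29.9% of all probe sets were called. Of these, 1 fell, the peptide transporter Tap2 by 0.76 ± 0.20 on the log2 scale (adjusted p = 0.00914, limma), and 1 rose, Tapbp by 0.58 ± 0.17 (0.0206). Their median was 0.11. Relative to the wild-type mean, the mean log2 level of the class I list was -0.50, -0.03, 0.34, -0.19 and 0.64 in tumors 22, 24, 26, 50 and 52, and -0.37 and -0.26 in set B. The mean of the 8 class II genes was -0.81, -0.28, -1.42, -0.48 and -0.10 in the same tumors, and -0.95 and -1.16 in set B. The lists had opposite signs in tumors 26 and 52 and were both lower in the others.

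Markers of cells that carry class II went both ways between tumors and wild-type gland, where 29.9% of all probe sets were called. The part of these markers in the class II result was not tested. Of 10 pan-leukocyte markers, 1 was called, Lcp1, an actin-bundling protein, higher by 1.54 ± 0.30 on the log2 scale (adjusted p = 0.00116, limma), with a median of -0.36. Of the 10 differences, 3 were positive and 7 negative. Sums over the 10 ranged from 14998 to 16357 in pools and from 16132 to 24777 in tumors. Lcp1 alone read 3239 to 3847 in pools and 5178 to 14999 in tumors, so it weighed heavily in the tumor sums. Of 12 macrophage markers tested, 2 fell and 1 rose: the mannose receptor Mrc1 by -2.10 ± 0.36 (0.000433), the growth factor receptor Csf1r by -0.86 ± 0.29 (0.0329) and the Fc receptor Fcgr1 by 1.09 ± 0.33 (0.0203). The sums over 15 macrophage markers ranged from 47245 to 52428 in pools and from 28265 to 61112 in tumors. Of 8 dendritic cell markers tested, Cd83 fell by 1.48 ± 0.50 (0.0365) and Ccl22 rose by 1.01 ± 0.35 (0.0386). Another Cd83 probe set, brighter on average but not past the filter, read 84.4 to 286 in pools and 74.9 to 463 in tumors, so the fall of Cd83 holds for 1 of its probe sets. The sums over 13 dendritic cell markers ranged from 11233 to 12015 and from 9697 to 13234.5.

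Of 6 B cell markers tested, the transcription factor Pax5 rose by 2.23 ± 0.48 on the log2 scale (adjusted p = 0.00244, limma) and none fell. Between tumors and wild-type gland 29.9% of all probe sets were called. Pax5 read 101.1 to 149 in pools, at or near the floor of 101, so the size of its rise is uncertain. The other 5 differences were negative, and the median over the 6 was -0.11. Cd79b lay below every pool in every tumor, with 2 tumors at the floor. Its difference of -1.64 ± 0.61 did not pass the test (0.0537). Sums over 10 B cell markers ranged from 3177 to 3795 in pools and from 2345 to 4550 in tumors, with 1 marker at the floor on every tumor and 3 on every pool. Only 2 of 11 T cell markers on the arrays could be tested, and neither was called. Sums over the 11 ranged from 1959 to 2941 in pools and from 1942 to 2759 in tumors.

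Against adjacent gland, tumors had 3 of 10 pan-leukocyte markers lower and 1 higher, with a median of -0.76. Coro1a fell by 1.08 ± 0.29 on the log2 scale (adjusted p = 0.0197, limma), Cd52 by 1.02 ± 0.29 (0.0275) and Rac2 by 0.90 ± 0.26 (0.0282), while Lcp1 rose by 0.998 ± 0.278 (0.0229). Of the other lists, 1 of 6 B cell, 1 of 12 macrophage and 1 of 8 dendritic cell markers were called, where 14.4% of all probe sets were. These were the B cell receptor chain Cd79b, which fell by 1.97 ± 0.56 (0.0261), Mrc1, by 1.98 ± 0.34 (0.000710), and Fscn1, an actin-bundling protein of mature dendritic cells, by 0.91 ± 0.21 (0.00660). The part of these markers in the class II differences of this comparison was not tested.

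**Figure D4:**
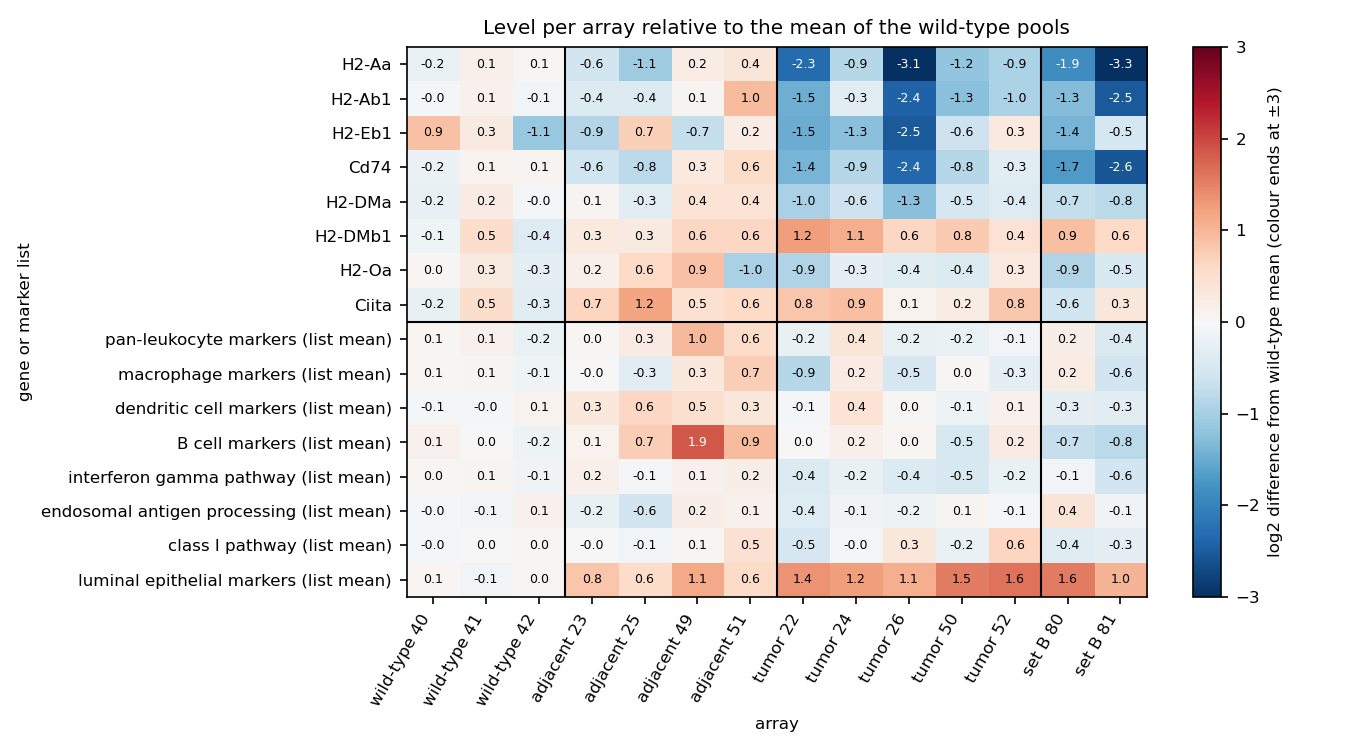
Log2 level of each class II gene, and mean log2 level of marker and pathway lists, per array relative to the mean of the wild-type pools (colour ends at 3 in either direction, numbers give the value). Tumor 26 and set B tumor 81 have the darkest blue for H2-Aa, while the luminal epithelial list is above the wild-type mean on every adjacent and tumor array.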

How the data were processed

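The authors deposited 1 linear intensity per probe set and array, for 12488 probe sets, made with software not given in the sources used here. With 2% trimmed from either end, array means lay between 1500.67 and 1500.9, so the deposited intensities were taken as scaled by the authors and were not normalized again. Values under 101.42, the 20th percentile of all values, were set to that floor before log2 was taken. The tests omitted 66 control probe sets and 3806 not above their array's 40th percentile on 3 or more arrays, and 8616 remained. The platform annotation named 10855 probe sets with 1 gene, 396 with several and 1237 with none, and 10839 symbols were updated by gene number. Each gene was read by its brightest probe set (mean log2) among those that passed.

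All 14 arrays entered 1 model with 4 groups in limma (version 3.58.1, R 4.3.3), using lmFit and eBayes with trend, which was tested on simulated data. Two-sided p-values had Benjamini-Hochberg adjustment per comparison. Errors of differences are standard errors of this fit, and precision is limited by how few arrays there are. Alternatives, read for the 8 genes only, covered scaling, floor, filter, array lot, groups in the fit, probe set choice and each array left out. Whether calls in the other lists hold under them was not tested. The setting of tumors of lot 2004097 against the pool of lot 2004907 was chosen after seeing the data. The 8 genes and the lists were chosen with earlier results of these data known. Named genes were the 8 genes, from each list and comparison at most 4 called genes by size of change (at most 2 by p if no gene was called), and the 6 most like the 8 by each correlation. Outside that rule, H2-Ea, Ctss and Ifng were chosen after their values were seen.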

Additional observations from a re-analysis of the deposited data

Results flagged for a closer look

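In tumor 52, the dimmer H2-DMa probe set read 1319.8, while the nearest of the other 4 tumors read 276.3. The gap was 0.92 of the group's whole range. About 1 in 20 such groups is flagged by chance. The brighter H2-DMa probe set read 2503 in the same tumor, against 1366 to 2301 in the other tumors.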

How the results depend on the processing

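With each array divided by its median, signs turned for adjacent against wild-type gland in H2-Ab1 (-0.12), H2-DMa (-0.025) and H2-Oa (-0.0078), and for set B against the first tumors in H2-DMa (0.16) and H2-DMb1 (0.086). Quantile normalization turned H2-Oa (-0.0061) in adjacent gland, Ciita (0.042) in set B against wild-type gland and H2-DMa (0.0030) in set B against the first tumors. None of these was called in either setting. Without the filter, 2 of the 8 genes were called between tumors and wild-type gland and 1 between tumors and adjacent gland, with more probe sets tested. With lot as a fixed block, 0 were called in both, the median between tumors and wild-type gland was -0.34, and that of adjacent gland was 0.58, with H2-Aa at 0.49, Cd74 at 0.61 and H2-Oa at -0.074. Comparing within lot 2004907 gave these same 4 values for adjacent gland, and within lot 2001815 tumors and adjacent gland had 1 call. With 2 lot numbers taken as 1, the block gave 0 calls and a median of -0.34 in tumors, and in adjacent gland a median of 0.51, H2-Aa at 0.47 and Cd74 at 0.56. Within that joined lot there were 0 calls and the median was -0.32. In both fixed blocks, pool 40 was the only wild-type array with weight. A random block gave 2 calls in tumors against wild-type gland, and Cd74 at 0.0067 in adjacent gland. The mean over probe sets gave H2-DMa -0.040 there. Beyond the numbers tested and the arrays left, the cause of these changes was not tested.

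Leaving out 1 array gave 0 to 5 calls between tumors and wild-type gland, 1 to 4 between tumors and adjacent gland and 0 to 4 in set B against wild-type gland. For adjacent gland it gave -0.46 to 0.011 for H2-Aa, -0.25 to 0.21 for H2-Ab1, -0.74 to 0.27 for H2-Eb1, -0.075 to 0.54 for H2-Oa and -0.36 to 0.089 for Cd74. For Ciita in set B against wild-type gland it gave -0.59 to 0.34. In set B against the first tumors it gave -0.28 to 0.60 for H2-Eb1, -0.14 to 0.078 for H2-DMa and -0.23 to 0.065 for H2-DMb1.

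No paired analysis was made because the sources used here do not say which adjacent gland belongs to which tumor. A lot block or a comparison within a lot could not be fitted for set B, whose lot holds no other group.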
